A study of Caenorhabditis elegans with 4 samples.

Results

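Body wall muscle nuclei were selected from whole-worm single-nucleus libraries of C. elegans by UMIs (unique molecular identifiers, which count captured RNA molecules) in 11 muscle genes. A nucleus was chosen when at least 4 of ttn-1, unc-89, unc-22, unc-54, myo-3, unc-15, cpna-2, pqn-22, ndnf-1, lev-11 and mup-2 had a UMI. It was left out when at least 2 of the 3 pharyngeal muscle genes myo-1, myo-2 and tnc-2 had one, which removed 169 nuclei in ent-1KO;ent-2KD, 46 in ent-1KO, 51 in ent-2KO and 40 in ctrl. In all, 6861 of 52147 nuclei passed. Because measured values chose them, the levels of the 11 genes and any contrast between these nuclei and the others are descriptions without a test.

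Body wall muscle of C. elegans consists of mononucleate, obliquely striated cells in quadrants along the body, whose sarcomeres are anchored through dense bodies (the counterpart of Z-discs) and M-lines to the basement membrane beneath the hypodermis. Acetylcholine receptors excite these cells and the GABA receptor UNC-49 relaxes them, and HLH-1, the worm MyoD, is the main transcription factor of their fate. The 11 genes encode myosin heavy chains (unc-54, myo-3), paramyosin (unc-15), the giant proteins titin, twitchin and obscurin (ttn-1, unc-22, unc-89), tropomyosin (lev-11), troponin T (mup-2) and a copine-domain protein (cpna-2), with pqn-22 and ndnf-1 of less defined function.

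The series concerns nucleoside transport between soma and germline in reproduction, and has 1 library for each of 4 conditions. The ent-1KO;ent-2KD worms were ent-1KO mutants fed HT115 bacteria that expressed ent-2 RNAi, whereas ent-1KO mutants, ent-2KO mutants and wild-type N2 (ctrl) were fed HT115 with the empty vector L4440. Both knockouts are CRISPR/Cas9 deletions in the whole animal, so none of the conditions is specific to muscle. All worms were at day 1 of adulthood, about 3000 whole bodies were pooled per library, and the nuclei were sorted on a DNA dye.

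The libraries held 32120382 UMIs in 13121 barcodes for ent-1KO;ent-2KD, 32714922 in 14935 for ent-1KO, 26390135 in 12425 for ent-2KO and 21009254 in 11666 for ctrl. The median depth of the chosen nuclei was 2317, 2167 and 2283 UMIs in the mutant libraries, in that order, and 1944 UMIs in ctrl. Pairs of libraries shared 293 barcode sequences in total, of which 0 were chosen nuclei. With 1 library per condition, genotype, RNAi and library cannot be told apart and no test between conditions is possible. Levels are given in CPM, the UMIs of a gene in the summed nuclei scaled to the same total in every library, and the 95% intervals (exact Poisson for CPM, exact Clopper-Pearson binomial for shares and ratios) cover counting error only. In sums over nuclei, fewer cells of a type and less RNA per cell cannot be told apart.

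The label fitted only some of the chosen nuclei. Those with 7 to 11 of the 11 genes were 42.1% of them in ent-1KO;ent-2KD, 43.05% in ent-1KO, 50.3% in ent-2KO and 40.0% in ctrl. By the number of the 11 genes present, the number of nuclei had a low point at 6 or 7 genes and a further peak at 9 or 10 in every library. The neuromuscular receptor genes (18 acetylcholine and GABA receptor subunits and their assembly factors, outside the rule) were high in the upper range. Their summed level in nuclei with 7 to 11 of the muscle genes was 2914 CPM in ent-1KO;ent-2KD, 3928 in ent-1KO, 3396 in ent-2KO and 3394 in ctrl. In nuclei with 4 to 6 of the muscle genes it was 202, 258, 207 and 270 CPM in the same order, beside 179, 159, 181 and 181 CPM in nuclei with 0 to 3. Just inside the threshold, nuclei with 4 of the genes held 185 CPM of receptor RNA in ent-1KO;ent-2KD (1298 nuclei), 227 in ent-1KO (409), 198 in ent-2KO (314) and 199 in ctrl (347). Just outside it, nuclei with 3 of the genes held 179 CPM in ent-1KO;ent-2KD (2288 nuclei), 157 in ent-1KO (1172), 204 in ent-2KO (873) and 181 in ctrl (839). The intervals on either side of the threshold overlapped in ent-1KO;ent-2KD, ent-2KO and ctrl, whereas in ent-1KO nuclei with 4 of the genes held more receptor RNA than those with 3.

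The ent-1KO;ent-2KD library stood apart in how often the 11 genes were detected. Nuclei without a UMI in any of the 11 genes numbered 1090 of 13121 there, against 4335 of 14935 in ent-1KO, 3824 of 12425 in ent-2KO and 3742 of 11666 in ctrl. The median depth of all nuclei was 1871, 1758, 1709 and 1414 UMIs in the same order. Among all nuclei that were not chosen, the 11 genes summed to 1436 CPM in ent-1KO;ent-2KD, 703 CPM in ent-1KO, 774 CPM in ent-2KO and 874 CPM in ctrl. These nuclei include pharyngeal muscle. In nuclei with 0 to 3 of the genes, pharyngeal muscle nuclei left out, the sum was 1067, 638, 662 and 778 CPM. The part of this background in the number of chosen nuclei was not tested.

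**Figure D1:**
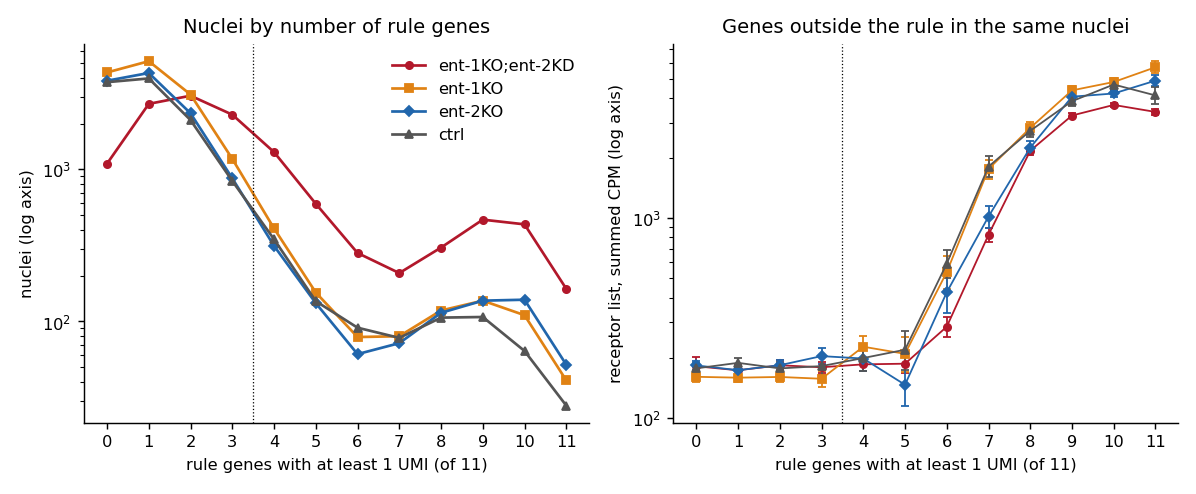
Left, number of nuclei (log axis) by how many of the 11 muscle genes had a UMI; right, summed CPM (log axis) of the neuromuscular receptor genes in the same nuclei, with 95% counting intervals, for the 4 libraries. The dotted line is the threshold of the rule. The receptor level stays near that of nuclei without muscle genes up to 5 genes and is many times higher from 8 genes on, and the ent-1KO;ent-2KD library has fewer nuclei with 0 of the genes (1090) than ctrl (3742).

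When the chosen nuclei were clustered, 15 sub-clusters separated, most of which carried markers of other cell types. Sub-clusters 2 (1563 nuclei) and 4 (491 nuclei) carried the muscle genes at 94024 and 85496 CPM and a median of 9 of the 11 genes. They are called body wall muscle-like below, and the choice of these 2 was made after seeing the data, by a summed level above 50000 CPM. The largest sub-cluster, number 1 with 1777 nuclei, carried 21 of the 21 germline markers at raised levels and 3949 CPM of the muscle genes. Sub-cluster 5 (490 nuclei) carried 4 of the 5 gonadal sheath and spermatheca markers, sub-cluster 7 (281 nuclei) 11 of 14 neuronal markers, sub-cluster 9 (204 nuclei) 10 of 13 intestinal markers and sub-cluster 10 (183 nuclei) 9 of 9 sperm markers. Sub-clusters 3 (709 nuclei), 11 (155) and 15 (38) had 7, 8 and 6 of 15 hypodermal markers raised, sub-cluster 6 (359) had 5 of the germline markers raised, and sub-cluster 14 (95) had 7 of 7 pharyngeal muscle markers raised. Sub-cluster 8 (273 nuclei) was another muscle population: it carried 4 of the 5 vulval, uterine and enteric muscle markers and the muscle genes at 33976 CPM. Sub-clusters 12 and 13 had ule-3 and ule-4 among their leading genes and stayed unnamed.

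The body wall muscle-like nuclei, 2054 in all, carried further genes known from the tissue that the rule had not used. The clustering could use these genes, and the sub-clusters were chosen after seeing the data. The levels below therefore describe these nuclei and do not test their label. Receptor genes summed to 4818 CPM in ent-1KO;ent-2KD, 5123 in ent-1KO, 5531 in ent-2KO and 5666 in ctrl. The GABA receptor gene unc-49 stood at 2909, 2982, 3130 and 3523 CPM in that order, against 59.4, 18.7, 23.02 and 21.1 CPM in nuclei outside the rule. The ryanodine receptor gene unc-68, which releases calcium from the sarcoplasmic reticulum, stood at 3290, 2890, 2769 and 3044 CPM, and lev-9, which clusters acetylcholine receptors, at 711, 994, 902 and 915 CPM. The matrix protein gene him-4 (hemicentin) reached 1642, 1368, 1878 and 1800 CPM. Each of these 4 genes was within 2-fold of ctrl in every mutant library. In all, 1083 genes were enriched at least 4-fold in the body wall muscle-like nuclei over nuclei outside the rule, and the 15 most enriched outside the 11 genes included Y55D5A.3, F48B9.3, lev-9, the predicted chemoreceptor gene srj-14, the long noncoding RNA linc-144 and dyla-1.

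Sub-clusters 2 and 4 differed in genes of body position, which the clustering itself had used. The Hox gene lin-39 stood in sub-cluster 2 at 241 CPM in ent-1KO;ent-2KD, 208 in ent-1KO, 261 in ent-2KO and 332 in ctrl. In sub-cluster 4 it gave 5, 0, 1 and 0 UMIs. The Hox gene mab-5 gave 171, 202, 231 and 212 CPM in sub-cluster 2 and 1, 1, 0 and 0 UMIs in sub-cluster 4. Both genes pattern the mid-body and posterior of the worm. The homeobox gene ceh-34, known from anterior tissues, ran the other way, at 333, 574, 661 and 775 CPM in sub-cluster 4 and 26.2, 43.1, 41.5 and 30.6 CPM in sub-cluster 2. The most anterior Hox gene, ceh-13, was present in both sub-clusters, at 59.7, 48.3, 47.4 and 44.7 CPM in sub-cluster 2 and at 53.1, 32.5, 45.8 and 22.2 CPM in sub-cluster 4, where it had 30, 6, 9 and 3 UMIs. The proton receptor gene pbo-5, which serves posterior muscle contraction, stood at 563, 491, 615 and 663 CPM in sub-cluster 2 and had 9, 0, 0 and 0 UMIs in sub-cluster 4. The Wnt antagonist gene sfrp-1, active in the anterior, stood at 195, 157, 234 and 170 CPM in sub-cluster 4 and at 16.06, 6.53, 4.45 and 9.41 CPM in sub-cluster 2. The shared muscle factors did not split in this way: hlh-1 had 131, 325, 234 and 288 CPM in sub-cluster 4 and 167, 317, 360 and 275 CPM in sub-cluster 2. Sub-cluster 4 made up 23.3% of the body wall muscle-like nuclei in ent-1KO;ent-2KD, 22.05% in ent-1KO, 25.7% in ent-2KO and 26.5% in ctrl, with overlapping 95% intervals (20.8 to 25.99%, 17.98 to 26.6%, 21.3 to 30.5% and 21.3 to 32.3%).

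The share of nuclei chosen by the rule was 28.6% in ent-1KO;ent-2KD (3754 nuclei, 95% interval 27.8 to 29.4%), 7.56% in ent-1KO (1129 nuclei, 7.14 to 8.00%), 8.22% in ent-2KO (1021 nuclei, 7.74 to 8.71%) and 8.20% in ctrl (957 nuclei, 7.71 to 8.72%). The interval of ent-1KO;ent-2KD lay above that of ctrl, and those of ent-1KO and ent-2KO overlapped it. Restricted to the body wall muscle-like nuclei, the share was 8.01% in ent-1KO;ent-2KD (1051 nuclei, 7.55 to 8.49%), 2.55% in ent-1KO (381, 2.30 to 2.82%), 2.91% in ent-2KO (362, 2.62 to 3.22%) and 2.23% in ctrl (260, 1.97 to 2.51%). With at least 7 of the 11 genes required, it was 12.04%, 3.25% and 4.14% in the mutant libraries in that order and 3.28% in ctrl. The share was highest in ent-1KO;ent-2KD under each of these definitions. After every nucleus was thinned to 500 UMIs, the rule chose 12.8%, 3.57%, 4.26% and 3.97%, with ctrl last. Pharyngeal muscle nuclei, defined by at least 2 of myo-1, myo-2 and tnc-2, were also the most frequent in ent-1KO;ent-2KD, with 1.88% in ent-1KO;ent-2KD (247 nuclei), 0.388% in ent-1KO (58), 0.579% in ent-2KO (72) and 0.531% in ctrl (62). These are shares of the recovered nuclei, which also depend on how many nuclei of every other tissue each library held.

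The targeted transporter genes were read in the body wall muscle-like nuclei first. ent-1 stood at 11.7 CPM in ent-1KO;ent-2KD (32 UMIs), 11.6 in ent-1KO (11), 58.6 in ent-2KO (51) and 49.95 in ctrl (28), which gave log2 ratios over ctrl of -2.10, -2.07 and 0.22 for the 3 mutant libraries. Both libraries with the ent-1 knockout were lower than ctrl, and their intervals did not overlap that of ctrl. ent-2 stood at 43 CPM in ent-1KO;ent-2KD (118 UMIs), 97.8 in ent-1KO (93), 59.7 in ent-2KO (52) and 99.9 in ctrl (56), with log2 ratios of -1.22 (95% interval -1.69 to -0.73), -0.04 (-0.52 to 0.47) and -0.74 (-1.32 to -0.17). The RNAi library was more than 2-fold lower for ent-2, and the ent-2KO library still gave ent-2 UMIs in muscle. In nuclei outside the rule ent-2 stood at 15.1, 19.3, 4.92 and 19.3 CPM in the same order, so the ent-2KO library was the lowest there. The map of the ent-2 deletion was not used here, so its place relative to the captured 3' tags is not given, and remaining UMIs do not show a working gene. The paper reports that ent-1 and ent-2 have closely similar coding sequences. How well the captured tags separate these genes was not tested. Of the other family members, ent-6 had 28.4, 53.7, 52.8 and 44.6 CPM in the body wall muscle-like nuclei, and ent-3, ent-4, ent-5 and ent-7 had between 0 and 12 UMIs in any library. 

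**Figure D2:**
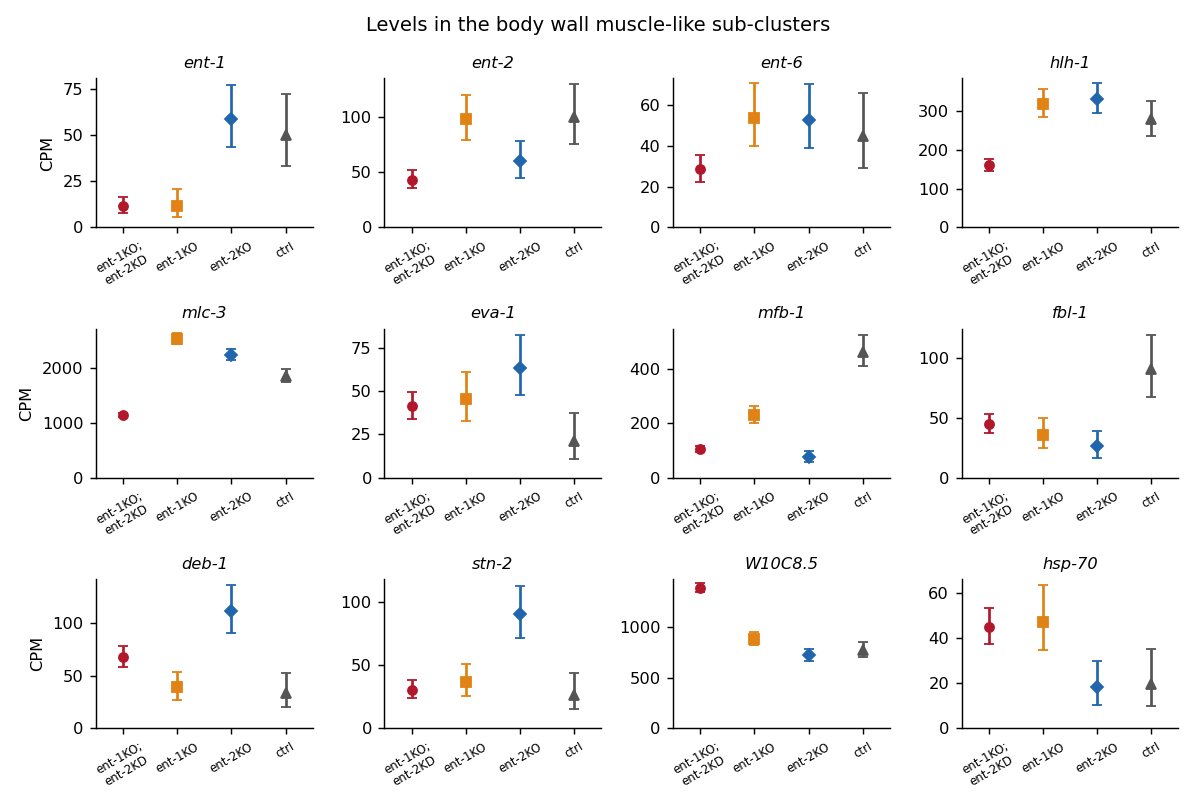
CPM of 12 genes in the body wall muscle-like nuclei of the 4 libraries, with 95% Poisson intervals; each y axis starts at 0. The genes were picked for display after their values were seen. ent-1 is low in both ent-1KO libraries, mfb-1 and fbl-1 are below ctrl in all 3 mutant libraries, and deb-1 and stn-2 are highest in ent-2KO.

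A gene was counted in a comparison when it had at least 50 UMIs over both libraries and at least 20 CPM in 1 of them, and called at a 2-fold ratio. Ratios of genes under this minimum are given as values without a call, as for ent-1 in ent-1KO (11 UMIs, against 28 in ctrl). The make-up of the chosen nuclei differed between libraries. Sub-cluster 1, with germline markers, held 21.3% of them in ent-1KO;ent-2KD, 33.0% in ent-1KO, 26.4% in ent-2KO and 35.0% in ctrl. Sub-cluster 3, with hypodermal markers, held 14.0%, 5.67%, 5.39% and 6.58% in that order, and sub-cluster 10, with sperm markers, 3.81%, 1.24%, 1.67% and 0.94%. Over all chosen nuclei, a different mix of cell types and a different level within one therefore cannot be told apart. Among all chosen nuclei, ent-1KO;ent-2KD over ctrl called 720 of 8110 genes higher (8.88%) and 746 lower (9.2%), ent-1KO called 113 (1.45%) higher and 83 (1.07%) lower of 7773, and ent-2KO called 70 (0.917%) higher and 94 (1.23%) lower of 7636. In the body wall muscle-like nuclei the counts were 365 higher (5.84%) and 412 lower (6.59%) of 6254 genes in ent-1KO;ent-2KD, 84 (1.8%) and 50 (1.07%) of 4664 in ent-1KO, and 146 (3.14%) and 60 (1.29%) of 4644 in ent-2KO. The median ratio of all genes in ent-1KO;ent-2KD was -0.09 in these nuclei, and scaling by the median of ratios instead of the total moved it to 0.04 and the split to 483 higher and 295 lower. For all chosen nuclei the same scaling moved the median from -0.17 to 0.04 and the split to 977 higher and 494 lower. In ent-1KO the split in the body wall muscle-like nuclei became 100 higher and 37 lower. These splits therefore depend on the scaling.

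Calls among the muscle-enriched genes were also counted in the body wall muscle-like nuclei. Of 1073 counted in ent-1KO;ent-2KD, 10 were called higher (0.932%, beside 5.84% of all genes) and 84 lower (7.83%, beside 6.59%). The enriched genes were chosen by their ratio to nuclei outside the rule in these same 4 libraries. That filter removes many genes that are also high in other nuclei, so the low share called higher is no result about muscle genes. The share called lower was near that of all genes. In ent-1KO the enriched genes gave 16 higher and 16 lower of 976 (1.64% each), and in ent-2KO 19 higher and 22 lower of 953 (1.99% and 2.31%). These balances depended on the processing: in ent-1KO they were 39 higher and 11 lower with 9 or more of the muscle genes, and in ent-2KO 37 higher and 11 lower with free RNA subtracted. For ent-1KO;ent-2KD the split was 61 lower and 20 higher of 1074 with the median of ratios scaling, and 34 lower and 28 higher of 638 without sub-cluster 2, where fewer genes were counted. All 3 comparisons share the ctrl library. The genes named next are the 8 at either end of the enriched genes in ent-1KO;ent-2KD whose ratio over ctrl was larger than any between ctrl, ent-1KO and ent-2KO. This choice was applied to the body wall muscle-like nuclei after the data had been seen.

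A pair of acyl-CoA dehydrogenase genes, of a family of mitochondrial enzymes that break down fatty and branched-chain acyl groups, was among the lowest. acdh-9 (II 846864-848603, WBcel235, minus strand) stood at 64.5 CPM in ent-1KO;ent-2KD, against 493 in ent-1KO, 487 in ent-2KO and 492 in ctrl. The intervals of the 3 other libraries overlapped, and the log2 ratio of ent-1KO;ent-2KD over ctrl was -2.93 (-3.21 to -2.66). Outside the rule acdh-9 stood at 27.4, 37.2, 35.7 and 26.5 CPM, a log2 ratio of 0.05, and in pharyngeal muscle nuclei at 58.8, 85.7, 67.0 and 30.4 CPM. acdh-2 (II 5544778-5547492, minus strand) stood at 813 CPM in ent-1KO;ent-2KD, 2799 in ent-1KO, 1472 in ent-2KO and 4415 in ctrl, so all 3 mutant libraries were lower, with log2 ratios of -2.44 (-2.53 to -2.36), -0.66 and -1.59. In nuclei outside the rule acdh-2 was also lower in the 3 mutant libraries, with log2 ratios of -1.13, -0.94 and -1.197.

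The other 6 at the low end are less studied. plpp-1.2 (II 6485476-6488861, plus strand), of the phospholipid phosphatase family, stood at 13.9 CPM in ent-1KO;ent-2KD, against 101, 85.0 and 85.6 CPM in ent-1KO, ent-2KO and ctrl, a log2 ratio of -2.62 (-3.28 to -1.98). In sub-cluster 4 it had 2 UMIs in ent-1KO;ent-2KD and 0 in ctrl, so the level belonged to sub-cluster 2. The noncoding RNA C49F8.6 (X 13377773-13377887, plus strand) stood at 17.9, 111.5, 56.3 and 99.9 CPM, and F38B7.14 at 7.29, 64.2, 33.3 and 58.9 CPM. F20D6.1 stood at 11.3 CPM in ent-1KO;ent-2KD, against 52.6, 68.9 and 55.3 CPM, and T22C1.15 at 16.40 CPM, against 57.9, 74.6 and 74.9 CPM. T22B2.11 was low in both libraries with the ent-1 knockout, at 14.9 CPM in ent-1KO;ent-2KD and 17.9 in ent-1KO, against 60.9 in ent-2KO and 69.6 in ctrl.

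Among all genes, enriched or not, whose ratio was likewise larger than any between ctrl, ent-1KO and ent-2KO, the next 3 were lowest. The noncoding RNA C05D9.12 (X 1107079-1107207, plus strand) stood at 27.3 CPM in the body wall muscle-like nuclei of ent-1KO;ent-2KD, against 780, 710 and 792 CPM in the other libraries, a log2 ratio of -4.85 (-5.23 to -4.50), and outside the rule its ratio was -5.50. M7.12 (IV 11096717-11097982, minus strand) stood at 9.47 CPM against 273, 171 and 250 CPM, a log2 ratio of -4.70 (-5.38 to -4.11), while the ratio outside the rule was -1.06. The sideroflexin family gene sfxn-1.5 stood at 8.75, 64.2, 50.5 and 71.4 CPM, a log2 ratio of -3.02 in muscle and -0.93 outside the rule. Y102A5C.6 was as low in ent-1KO as in ent-1KO;ent-2KD, at 7.36 and 7.29 CPM, against 33.3 CPM in ent-2KO and 58.9 CPM in ctrl. The eggshell gene cpg-3 stood at 18.2 CPM in ent-1KO;ent-2KD, against 189, 141 and 144.5 CPM, C09B8.4 at 8.75 against 69.6 CPM in ctrl, and pqn-74 at 8.75 against 51.7 CPM in ctrl. Over all libraries, C05D9.12, Y102A5C.6 and cpg-3 were highest in sub-cluster 1, with germline markers. C09B8.4 was highest in sub-cluster 5, and M7.12, sfxn-1.5 and pqn-74 in sub-cluster 14. cpg-3 stood at 308.1 CPM in sub-cluster 1, against 77.63 and 111.0 CPM in sub-clusters 2 and 4. The part of RNA from other nuclei in these ratios was not tested.

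**Figure D3:**
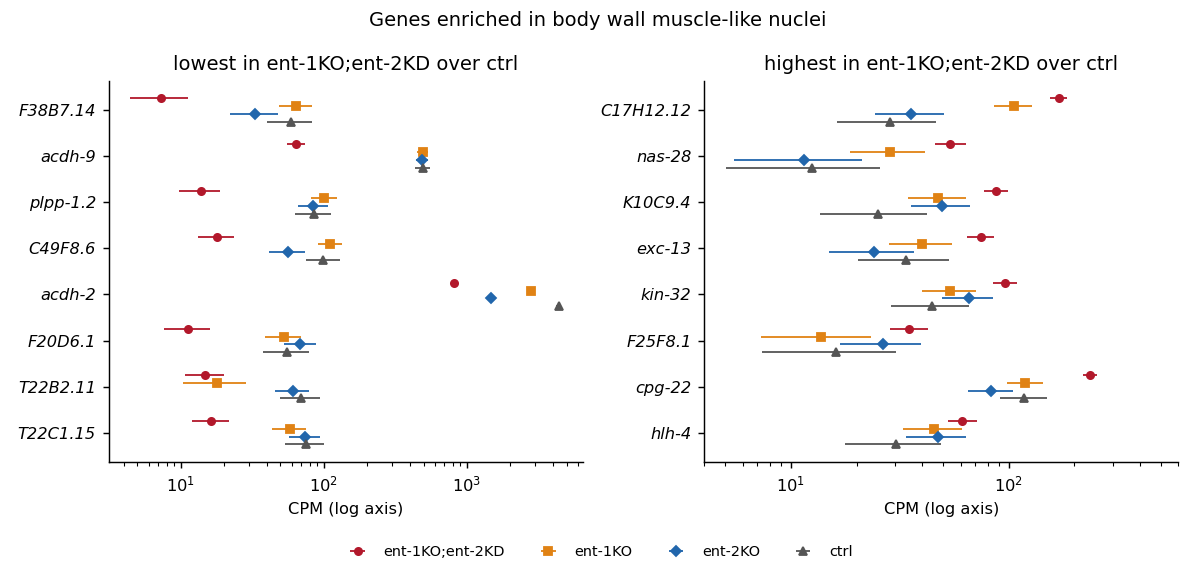
CPM (log axis) with 95% Poisson intervals in the body wall muscle-like nuclei for the 8 enriched genes lowest (left) and the 8 highest (right) in ent-1KO;ent-2KD over ctrl, in all 4 libraries. acdh-9 stands at 64.5 CPM in ent-1KO;ent-2KD and between 487 and 493 CPM in the other 3 libraries, while the genes on the right differ less.

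At the high end, C17H12.12 (IV 6795924-6798789, plus strand) stood at 169 CPM in ent-1KO;ent-2KD, 105 in ent-1KO, 35.6 in ent-2KO and 28.5 in ctrl, with log2 ratios of 2.53 (1.86 to 3.39), 1.84 and 0.30. It was called higher in both libraries with the ent-1 knockout, and in sub-cluster 4 it had 104 UMIs in ent-1KO;ent-2KD and 0 in ctrl, at least 8.31-fold higher against a floor of 3 UMIs. K10C9.4 (V 1050126-1053014, minus strand) stood at 87.5, 47.3 and 49.4 CPM in the mutant libraries and 24.98 CPM in ctrl, a log2 ratio of 1.76 (1.03 to 2.70) in ent-1KO;ent-2KD. kin-32, the worm focal adhesion kinase, stood at 96.2 CPM in ent-1KO;ent-2KD, against 53.7, 65.4 and 44.6 CPM, a log2 ratio of 1.08 (0.52 to 1.76). nas-28, of the astacin protease family, had 53.9, 28.4, 11.5 and 12.5 CPM, a log2 ratio of 2.02, and in sub-cluster 4 it had 1 UMI in ent-1KO;ent-2KD and 0 in ctrl. exc-13, F25F8.1, cpg-22 and the basic helix-loop-helix gene hlh-4 had log2 ratios of 1.099, 1.05, 0.99 and 0.98, of which F25F8.1 became -0.83 when 9 or more of the muscle genes were required. pck-1, the gluconeogenic phosphoenolpyruvate carboxykinase, stood at 952, 770, 316 and 421 CPM, with log2 ratios of 1.18, 0.87 and -0.42.

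Several genes with the highest ratios in the body wall muscle-like nuclei of ent-1KO;ent-2KD were also high in its other nuclei. C32H11.4 had 174 UMIs in its body wall muscle-like nuclei and 0 in ctrl, at least 11.9-fold higher against a floor of 3 UMIs in the library sum, C30G12.2 at least 10.7-fold, F14D2.19 at least 9.26-fold, dhs-26 at least 7.49-fold and F45E1.4 at least 4.29-fold. F14D2.19 was uneven, at 33.37, 55.29 and 0.9247 CPM in sub-clusters 2, 3 and 4 over all libraries. Outside the rule C32H11.4 stood at 83.4, 6.77, 2.68 and 1.14 CPM and dhs-26, of the short-chain dehydrogenase family, at 123.8, 1.52, 3.37 and 2.06 CPM. The neuropeptide genes flp-1, flp-11 and nlp-49 were high in both as well, with 159, 64.2, 11.5 and 10.7 CPM of flp-1 in the body wall muscle-like nuclei and 258, 213, 23.6 and 13.3 CPM outside the rule. The intermediate filament gene ifb-1, T22B7.7 and C17H12.8 completed the high end, at 41.2, 247 and 86.7 CPM in ent-1KO;ent-2KD, against 1.78, 16.06 and 5.35 CPM in ctrl.

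In the ent-1KO and ent-2KO libraries fewer muscle genes were called, and several differed from the shared ctrl in all 3 mutant libraries. mfb-1 (I 8779731-8785415, minus strand), the homologue of the muscle atrophy F-box gene MAFbx, stood at 105 CPM in ent-1KO;ent-2KD, 229 in ent-1KO, 76.9 in ent-2KO and 462 in ctrl, with log2 ratios of -2.14 (-2.39 to -1.89), -1.01 (-1.28 to -0.74) and -2.58 (-2.997 to -2.19). Outside the rule its level was 32.8, 12.6, 12.4 and 16.37 CPM, with ent-1KO;ent-2KD the highest. fbl-1, the fibulin of the basement membrane, stood at 45.2, 35.8 and 26.4 CPM in the mutant libraries and 91.0 in ctrl, with ratios of -1.02, -1.34 and -1.77. try-3, a trypsin-like protease gene, stood at 64.1, 90.5, 27.6 and 128 CPM. eva-1, a Slit receptor of axon guidance, stood at 41.2, 45.2, 63.1 and 21.4 CPM, with ratios of 0.89, 1.04 and 1.52.

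In ent-2KO, 3 of 16 counted dense body genes (deb-1, pxl-1 and alp-1) and 1 of 9 counted genes of the dystrophin complex (stn-2) were called higher, beside 3.14% of all genes. Over all chosen nuclei of ent-2KO, 0 of 16 counted dense body genes were called, while stn-2 was called there too. deb-1 (vinculin) stood at 111 CPM in ent-2KO, against 33.9 in ctrl, with 67.4 and 38.9 CPM in ent-1KO;ent-2KD and ent-1KO. stn-2 (a syntrophin of the dystrophin complex) stood at 90.7 CPM in ent-2KO and 26.8 in ctrl, pxl-1 (paxillin) at 121.7 and 51.7, and alp-1 (the ALP/Enigma protein) at 192 and 91.0. Their log2 ratios were 1.69 (1.00 to 2.51), 1.72 (0.95 to 2.66), 1.22 (0.63 to 1.88) and 1.07 (0.62 to 1.56). txt-5 and the secretin-family receptor gene seb-2 were higher as well, at 136 against 32.1 CPM and 50.5 against 14.3 CPM. Over all libraries deb-1, stn-2 and txt-5 had their highest level in sub-cluster 8 and seb-2 in sub-cluster 5, outside the body wall muscle-like nuclei. Also called in ent-2KO were bec-1 (the autophagy gene beclin), at 66.6 against 155 CPM, and adah-1 (an adenosine deaminase homologue), at 83.8 against 173 CPM. In ent-1KO the enriched genes at the ends were fbxa-24, C17H12.12, E04F6.9 and the neuropeptide receptor gene dmsr-1 (76.8 against 28.5 CPM) on the high side, and T22B2.11, F31E8.13, hot-8 (40.0 against 130 CPM) and Y57G11C.40 on the low side. Over all libraries F31E8.13, hot-8 and Y57G11C.40 had their highest level in sub-cluster 8 and fbxa-24 in sub-cluster 7. C17H12.12, E04F6.9, dmsr-1 and T22B2.11 had theirs in sub-cluster 2 or 4. Over all genes, the highest in ent-2KO were Y62H9A.3 (112.5 against 5.35 CPM), F55B11.3, Y62H9A.4 and ZK813.3, each with its highest level in sub-cluster 12, and in ent-1KO flp-11, flp-1, B0035.13 and M01B2.10. Y46H3C.7 stood at 37.5, 46.3 and 55.1 CPM in the mutant libraries and 205 CPM in ctrl, with ZC132.10 among the lowest of ent-1KO and ivns-1 among those of ent-2KO. Each had its highest level outside the body wall muscle-like sub-clusters. Over all libraries Y46H3C.7 stood at 6823 CPM in sub-cluster 6, against 48.95 and 103.6 CPM in sub-clusters 2 and 4. ZC132.10 and ivns-1 were highest in sub-cluster 5. The difference between the 3 mutant libraries in these genes was not tested.

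Sarcomere genes gave no calls in the body wall muscle-like nuclei. Of the 11 genes of the rule, 0 were called in any comparison, and their log2 ratios in ent-1KO;ent-2KD ran from -0.60 (lev-11) to 0.67 (unc-54). These 11 genes had chosen the nuclei and, by their summed level, the sub-clusters, so their ratios only describe the selected nuclei. Over all genes, 5.84% were called higher and 6.59% lower in ent-1KO;ent-2KD, 1.8% and 1.07% in ent-1KO and 3.14% and 1.29% in ent-2KO. Of the 10 counted thick filament and M-line genes outside the rule, 0 were called, and the list medians were 0.12 in ent-1KO;ent-2KD, 0.01 in ent-1KO and 0.27 in ent-2KO, beside -0.09, 0.02 and 0.12 for all genes. The lowest was mlc-3, the essential myosin light chain, at 1142 CPM in ent-1KO;ent-2KD, against 2521 in ent-1KO, 2230 in ent-2KO and 1854 in ctrl. The 18 thin filament and troponin genes (17 counted in ent-1KO and in ent-2KO) gave 0 calls and medians of 0.04, 0.26 and 0.15. Dense body genes gave 0 calls of 17, 0 of 15 and 3 of 16, with medians of 0.16, 0.05 and 0.48, all 16 of the last above 0. The dystrophin complex gave 0 calls of 10, 0 of 9 and 1 of 9 (stn-2), with medians of -0.22, 0.01 and 0.17, and its lowest gene in ent-1KO;ent-2KD was sgn-1 (a sarcoglycan), at 32.8 against 64.2 CPM.

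Genes of excitation gave a single call. Of the neuromuscular receptor genes 0 of 16, 0 of 15 and 0 of 15 were called, with medians of -0.17, -0.24 and 0.16. Excitation and calcium genes gave 1 call of 15 in ent-1KO;ent-2KD and 0 of 13 in each single knockout, with medians of 0.06, -0.07 and 0.11. The call was itr-1 (the IP3 receptor), at 48.5 CPM against 16.06 in ctrl, which was called higher outside the rule too. Of all genes, 5.84% were called higher and 6.59% lower in ent-1KO;ent-2KD. The shares were 1.8% and 1.07% in ent-1KO, and 3.14% and 1.29% in ent-2KO. Among the muscle transcription factors only hlh-1, unc-120 and mef-2 were counted. hlh-1 stood at 160 CPM in ent-1KO;ent-2KD, against 319 in ent-1KO, 332 in ent-2KO and 278 in ctrl, a log2 ratio of -0.81 (-1.07 to -0.53) that did not reach 2-fold. unc-120, the worm serum response factor, stood at 146, 162, 115 and 152 CPM, and the other 5 factors had at most 4 UMIs in a library. The Hox genes lin-39, mab-5 and ceh-13 gave 0 calls.

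**Figure D4:**
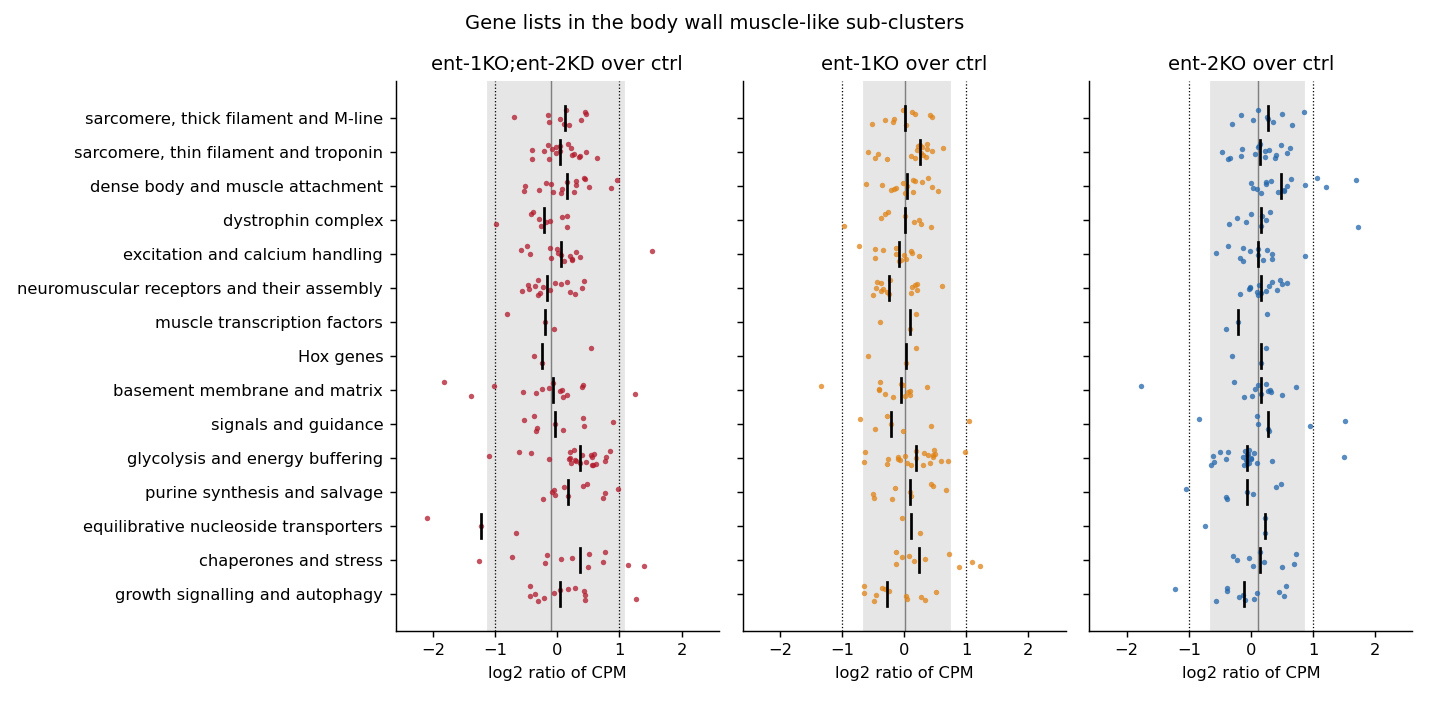
Log2 ratio of CPM over ctrl of each counted gene (points) in 15 lists, in the body wall muscle-like nuclei of each mutant library; thick bars are list medians, the grey band spans the 5th to 95th percentile of all counted genes and dotted lines mark 2-fold. Nearly all contractile and receptor genes lie within the band, and the transporter list is the furthest from 0 in ent-1KO;ent-2KD (median -1.22). That list has only 3 counted genes there, ent-6 and the targeted ent-1 and ent-2, so the median is the ratio of ent-2 and no result about the family.

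Calls in the matrix lists were few. The basement membrane list gave 1 higher and 3 lower of 15 in ent-1KO;ent-2KD, beside 5.84% and 6.59% of all genes, and 0 higher and 1 lower of 13 (fbl-1) in each single knockout, with medians of -0.07, -0.04 and 0.17. cle-1 (type XVIII collagen) stood at 31.7 CPM in ent-1KO;ent-2KD, against 86.3, 92.99 and 112.4 CPM, a log2 ratio of -1.83 (-2.31 to -1.33). sdn-1 (syndecan) stood at 12.4 against 32.1 CPM and nid-1 (nidogen) at 27.3 against 10.7 CPM, from 75 and 6 UMIs. Outside the rule nid-1 was also called higher in ent-1KO;ent-2KD. The type IV collagen genes emb-9 and let-2 had ratios between -0.07 and 0.33 in all comparisons. The signal and guidance list gave 0 calls of 9 in ent-1KO;ent-2KD and 1 of 7 in each single knockout, which was eva-1, with medians of -0.04, -0.21 and 0.28. Of all genes, 1.8% were called higher and 1.07% lower in ent-1KO, and 3.14% and 1.29% in ent-2KO.

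Energy metabolism showed single calls only. Of all genes, 6.59% were called lower in ent-1KO;ent-2KD, and in ent-2KO 3.14% were called higher and 1.29% lower. Of 23 counted glycolysis and energy buffering genes, 1 was called lower in ent-1KO;ent-2KD (gpd-1), 0 were called in ent-1KO and 1 was called higher in ent-2KO (gpd-4), with medians of 0.37, 0.20 and -0.07. gpd-1 and gpd-4 encode near-identical glyceraldehyde phosphate dehydrogenases, so the assignment of reads between them is uncertain. W10C8.5, of the creatine and arginine kinase family, stood at 1388 CPM in ent-1KO;ent-2KD, 887 in ent-1KO, 722 in ent-2KO and 773 in ctrl, a log2 ratio of 0.84 (0.70 to 0.99). Purine synthesis and salvage, which makes and recycles nucleosides, gave 0 calls of 11 in ent-1KO;ent-2KD, 0 of 9 in ent-1KO and 1 of 7 in ent-2KO (adah-1), with medians of 0.17, 0.10 and -0.06. When free RNA was subtracted the median in ent-1KO;ent-2KD was -0.08, so its sign depends on the processing. adk-1, the adenosine kinase, was the highest of the list in ent-1KO;ent-2KD, at 61.2 CPM against 30.3 in ctrl, and ppat-1, which opens purine synthesis, the lowest, at 238 against 278 CPM.

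Of 12 counted chaperone and stress genes in ent-1KO;ent-2KD, 2 were called higher (hsp-70 and mtl-2) and 1 lower (hsp-4), 2 of 10 were called in ent-1KO (hsp-6 and hsp-70, both higher) and 0 of 9 in ent-2KO, with medians of 0.36, 0.24 and 0.15. Of all genes, 5.84% were called higher and 6.59% lower in ent-1KO;ent-2KD. The shares were 1.8% and 1.07% in ent-1KO, and 3.14% and 1.29% in ent-2KO. hsp-70, an inducible cytosolic chaperone with near-identical copies in the genome, stood at 44.8, 47.3, 18.4 and 19.6 CPM. Outside the rule hsp-70 and mtl-2 were also called higher in ent-1KO;ent-2KD. Over all libraries hsp-70 stood at 688.7 CPM in sub-cluster 5, against 28.92 and 72.13 CPM in sub-clusters 2 and 4. hsp-4, the BiP of the endoplasmic reticulum stress response, stood at 53.6 CPM in ent-1KO;ent-2KD, against 143, 149 and 128 CPM, and outside the rule at 145, 414, 330 and 369 CPM, so the lower level was shared by other nuclei. Growth signalling and autophagy gave 1 call of 13 in ent-1KO;ent-2KD (pdk-1, at 27.7 against 10.7 CPM), 0 of 12 in ent-1KO and 1 of 12 in ent-2KO (bec-1), with medians of 0.04, -0.28 and -0.11.

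RNA of other tissues was present in the body wall muscle-like nuclei and differed between libraries. If all germline marker RNA in these nuclei were free RNA with the profile of its library, free RNA would make up 30.7% of their UMIs in ent-1KO;ent-2KD, 27.9% in ent-1KO, 35.7% in ent-2KO and 26.5% in ctrl, so low levels of genes that other tissues express are not evidence of expression in muscle. The 15 hypodermal markers summed to 5937 CPM in ent-1KO;ent-2KD, 4958 in ent-1KO, 3526 in ent-2KO and 3452 in ctrl, and the 13 intestinal markers to 8625, 4913, 3151 and 4087 CPM. Neuronal markers summed to 1307, 884, 907 and 938 CPM, and germline markers to 1009, 1926, 2563 and 1707 CPM. In ent-1KO;ent-2KD 6 of 9 counted intestinal markers and 6 of 8 neuronal markers were called higher, beside 5.84% of all genes. In the same library 8 of 21 germline markers were called lower, beside 6.59% of all genes. The nuclei outside the rule differed in the same direction, with intestinal markers at 10924, 6534, 4229 and 6156 CPM and germline markers at 3713, 7194, 7473 and 6714 CPM. Pharyngeal muscle markers summed to 67.4, 16.8, 29.9 and 37.5 CPM and vulval, uterine and enteric muscle markers to 7.65, 2.10, 8.04 and 0 CPM. The rule itself kept the pharyngeal sum low by leaving out nuclei with its genes. Ribosomal protein genes took 7.01%, 5.45%, 4.64% and 4.25% of the UMIs in these nuclei. Barcodes scored as likely doublets made up 7.42%, 16.54%, 14.1% and 9.62% of them. The part of such RNA in genes that are also expressed outside muscle was not tested. For acdh-9, C49F8.6 and T22C1.15 the level outside the rule was within 2-fold of ctrl in ent-1KO;ent-2KD.

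Over all chosen nuclei, most genes at the ends of the list had their highest level outside sub-clusters 2 and 4. The ends hold only genes whose ratio in ent-1KO;ent-2KD was larger than any between ctrl, ent-1KO and ent-2KO. The lowest genes of ent-1KO;ent-2KD were clec-266 (0.171 CPM, against 44.8 in ent-1KO, 89.1 in ent-2KO and 97.8 in ctrl), Y82E9BR.17, Y106G6D.2, nep-14, Y43B11AL.1, C05D9.12, B0281.5, Y43B11AL.5, ZK430.5 and C35E7.5, of which 8 had their highest level in sub-cluster 6, nep-14 in sub-cluster 13 and C05D9.12 in sub-cluster 1. The enriched genes that were lowest, ddo-3, hsp-12.6, T04G9.7, F48E3.4, C13G3.1, tbh-1, fbxa-42 and C39D10.7, all had their highest level in sub-cluster 5, which carries gonadal sheath markers. tbh-1, the tyramine beta-hydroxylase that makes octopamine and is known in gonadal sheath, stood at 84.9, 537, 363 and 689 CPM, and the sheath genes inx-8, inx-9 and lim-7 were called lower too. At the high end, dhs-26, F14D2.19, C32H11.4, T22B7.7, T20D4.3, F57G8.7, his-40, W06G6.17, C30G12.2 and ZK616.61 had log2 ratios from 3.83 to 6.21, with 6 of the 10 highest in sub-cluster 3. The enriched genes at that end were K10C9.4, cri-1, pck-1, exc-13, ZK688.12, hsp-70, M05D6.1 and pat-9, of which pat-9 is a zinc finger factor of muscle assembly (37.4 CPM, against 23.7, 32.5 and 19.5 CPM).

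In ent-1KO over ctrl the ends of all chosen nuclei were the histone genes his-40 and his-38, the neuropeptide gene flp-1 and F53A9.8 on the high side, and C35B1.8 (at least 22.7-fold lower), R03G8.4, clec-97 and H01G02.1 on the low side. In ent-2KO they were gst-34 (at least 19.6-fold higher), E02H9.7, R03G8.6 and Y62H9A.3, and R03G8.4, nep-4, oac-6 and D1086.10. The 4 low genes of ent-1KO and 3 of the 4 low genes of ent-2KO had their highest level in sub-cluster 13, which held 13 nuclei in ctrl. Other genes called in all chosen nuclei of ent-1KO;ent-2KD but not in its body wall muscle-like nuclei included atic-1, of purine synthesis, at 117 CPM against 40.5 in ctrl, lim-8 of the M-line, at 45.3 against 21.8, and ent-3, at 25.1 against 5.46. In the body wall muscle-like nuclei these genes had 70 and 8 UMIs (atic-1) and 12 and 0 UMIs (ent-3) in ent-1KO;ent-2KD and ctrl.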

How the data were processed

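Nuclei of whole day 1 adults were sorted on DNA content and sequenced on the 10x Chromium platform, with 1 pooled library per condition. The authors made the deposited count matrices (UMIs per gene and barcode, not normalised) with Cell Ranger, version 6.0 in the submitters' notes and 6.1.2 in the matrix headers, against the WS282 annotation. Their later Seurat steps and doublet filter were not repeated, and all barcodes (at least 500 UMIs each) were used. The members and gene lists were chosen with earlier results of these data known.

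UMIs were summed over nuclei per library, and 0.5 UMIs were added to each sum before log2 ratios over ctrl. Genes with 100 UMIs and at least 4-fold over nuclei outside the rule were called enriched. Chosen nuclei were clustered with scanpy 1.11.5 (2000 variable genes, 20 components, 15 neighbours, Leiden resolution 0.5). Named genes were the 11 of the rule, the most enriched outside them (15), the 10 highest and lowest ratios (8 among enriched genes) in ent-1KO;ent-2KD beyond those between the other libraries, the 4 highest and lowest in each single knockout, called and extreme list members, and ent-1 to ent-7. pck-1, W10C8.5, unc-49, unc-68, him-4 and the genes compared between sub-clusters were named after their values were seen where they fall outside this rule. Alternatives covered the number of muscle genes required, depth, doublets (Scrublet, the top 0.8% per 1000 barcodes), scaling, weighting of nuclei, free RNA (the library profile, in the amount given by germline markers) and minimums. Gene positions are from WBcel235. Only the log2 ratios and their intervals were tested on simulated counts, at the depth of the sums over all chosen nuclei.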

Additional observations from a re-analysis of the deposited data

How the results depend on the processing

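The share of chosen nuclei, 28.6% in ent-1KO;ent-2KD, 7.56% in ent-1KO, 8.22% in ent-2KO and 8.20% in ctrl, depended on the definition, and ent-1KO;ent-2KD was the highest under each. In that order it was 46.05%, 15.4%, 15.2% and 15.4% with 3 of the genes, 18.7%, 4.82%, 5.69% and 5.23% with 5, 12.85%, 3.57%, 4.26% and 3.97% thinned to 500 UMIs, and 32.7%, 8.72%, 9.59% and 10.1% from 1000 UMIs. Without likely doublets it was 27.1% in ent-1KO;ent-2KD, 7.52% in ent-2KO and 7.70% in ctrl. Chosen after seeing the data, 7 genes gave 12.04%, 3.25%, 4.14% and 3.28%, and the body wall muscle-like sub-clusters 8.01%, 2.55%, 2.91% and 2.23%.

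Counts of genes past 2-fold, for ent-1KO;ent-2KD, ent-1KO and ent-2KO over ctrl, followed the minimum. In all chosen nuclei they were 2290, 395 and 333 from 20 UMIs and 10 CPM, 727, 62 and 84 from 200 UMIs and 50 CPM, and 61, 27 and 25 among enriched genes. With free RNA subtracted, ent-1KO had 887 and ent-2KO 904. With 3 of the genes ent-1KO had 121, and in the body wall muscle-like sub-clusters ent-1KO;ent-2KD had 777. In those sub-clusters, under alternatives chosen after seeing the data, they were 1448, 443 and 531 from 20 UMIs and 10 CPM, 189, 10 and 29 from 200 UMIs and 50 CPM, 325, 52 and 68 without sub-cluster 2, and 94, 32 and 41 among enriched genes. With 9 of the genes ent-1KO had 235, and with 5 UMIs added ent-1KO had 72 and ent-2KO 115. Free RNA subtraction moved the split of higher and lower genes there to 444 and 239 in ent-1KO;ent-2KD and to 93 and 85 in ent-2KO, and in all chosen nuclei of ent-1KO;ent-2KD to 1155 and 677. Enriched genes in these sub-clusters gave 11 higher and 88 lower in ent-1KO;ent-2KD with free RNA subtracted, and 37 higher and 11 lower in ent-2KO, and with 9 of the genes 39 higher and 11 lower in ent-1KO.

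Of the 16 enriched genes named for ent-1KO;ent-2KD, 13 kept their direction under the 9 alternatives that could move a ratio. The exceptions were F25F8.1 (-0.83 with 9 of the genes; the cause was not tested) and, without sub-cluster 2, nas-28 (-0.48) and plpp-1.2 (0.26), whose values there come from the added 0.5 UMIs, since they had 1 and 2 UMIs in ent-1KO;ent-2KD and 0 in ctrl. Of the 16, only acdh-9 and acdh-2 had more than 15 UMIs in ctrl without sub-cluster 2. No paired analysis was possible because each condition has 1 library. With 1 library per condition there is no replicate error, genes under the minimum were not called, and ctrl, with 260 body wall muscle-like nuclei, limits the precision of the ratios in those nuclei.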
